A study of Homo sapiens with 32 samples.

Results

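The RNAs made from the RBM genes were followed in iCLIP libraries of 3 mRNA export proteins. The genes are the human protein-coding genes of the GRCh37 annotation, on the autosomes or chromosome X, whose names are RBM followed by a number, without RBM8A, RBM15, RBM15B, RBM23 and RBM39. This choice by name gave 33 genes of 20176 protein-coding genes. No measured value entered the rule, though earlier results of these data were known when it was chosen. One of the 33, the readthrough gene RBM14-RBM4, shares its bases with RBM14 and RBM4. Readthrough genes were not assigned tags, so 32 genes were described, and 27 of them had at least 1 tag in every factor group. In all, 16616 protein-coding genes had a tag. The measurement concerns contacts of Alyref, Chtop and Nxf1 with the transcripts of RBM genes, not the RNAs that RBM proteins bind.

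iCLIP crosslinks proteins to RNA with UV light in living cells, recovers the tagged protein with its RNA and reads the base at which reverse transcription stopped. The cells are labelled HEK293T with a FlpIn site, and FlpIn-293 in the growth protocol, an established line of human embryonic kidney origin in which a transgene is placed at 1 recombination site, and they carried FLAG-tagged Alyref, FLAG-tagged Chtop or FLAG-tagged Nxf1 in an inducible locus, or the FLAG tag alone (Control). The transgenes were induced with tetracycline over 48 h, Alyref and Chtop with 10 ng/mL and Nxf1 with 5 ng/mL, whereas the dose of the Control is not given in the sources used here. All 12 libraries, 3 per group, came from anti-FLAG precipitation, and the tagged protein was made in addition to the cell's own, so each factor group is 1 engineered line. The labels do not say that the 3 libraries of a group came from separate cultures, so p-values measure the spread between these libraries, which may be technical. A tag is 1 deduplicated read at a crosslinked base, and CPM is the tag count scaled to the size of the library.

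RBM proteins take their name from the RNA recognition motif, a fold that lies on single-stranded RNA, but they do not form 1 pathway. RBM5, RBM6, RBM10, RBM17 and RBM25 act in splice-site choice in the early spliceosome, RBM22 and RBM42 in later spliceosomes, and RBM41 and RBM48 in the minor spliceosome. RBM7, RBM26 and RBM27 link nuclear RNA to decay by the exosome, RBM33 binds the m6A eraser ALKBH5, RBM19, RBM28 and RBM34 sit in the nucleolus, and others act in heart, muscle, germ line or cold-treated cells. A major pathway of mRNA export runs through TREX, the complex that holds Alyref and Chtop and hands the mRNA to the export receptor Nxf1. Export of the RBM mRNAs themselves was not measured here.

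Library depth ran from 81307 to 631704 tags in Alyref, from 47052 to 538844 in Chtop, from 8134 to 179346 in Nxf1 and from 7017 to 46628 in the Control, and replicate 1 was the shallowest of every group. Of 6 genes known to be on in this line, 5 had exonic tags (289 in all; NEFM had 0), and of 6 genes of other tissues 3 had any, 14 tags in all, 12 of them on HBB. In all libraries together the RBM genes held 7879 tags, 3856 in Alyref, 3147 in Chtop, 670 in Nxf1 and 206 in the Control. Of the tags on protein-coding genes this was 0.385% ± 0.0304 in Alyref, 0.392% ± 0.0055 in Chtop, 0.356% ± 0.0335 in Nxf1 and 0.378% ± 0.0451 in the Control (SD, n = 3 each). The 4 groups overlapped. A tag count moves with the amount of an RNA and with its contact to the protein, and these, like fewer cells or less RNA per cell, cannot be told apart here.

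Tags were spread unevenly over the genes. RBM26, RBM33, RBM25, RBM20, RBM3 and RBM5 held 50.2% of the 7673 tags in the 9 factor libraries, the median gene had 189, and 10 genes had fewer than 50. Only 8 genes had a tag in all 12 libraries, 7 had 0 in the Control and 4 had 0 in Nxf1, where 0 tags allow up to 3. The 5 early spliceosome genes took 31.1% of the Alyref tags on RBM genes, 24.8% of those of Chtop, 20.7% of those of Nxf1 and 18.9% of those of the Control, and the tags themselves numbered 1200, 782, 139 and 39. The 4 decay and m6A genes had 915, 849, 174 and 57 tags, fewer than the early spliceosome genes in Alyref and more in the other groups. The tissue-restricted genes, mostly RBM20, had 408, 288, 123 and 30.

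**Figure D1:**
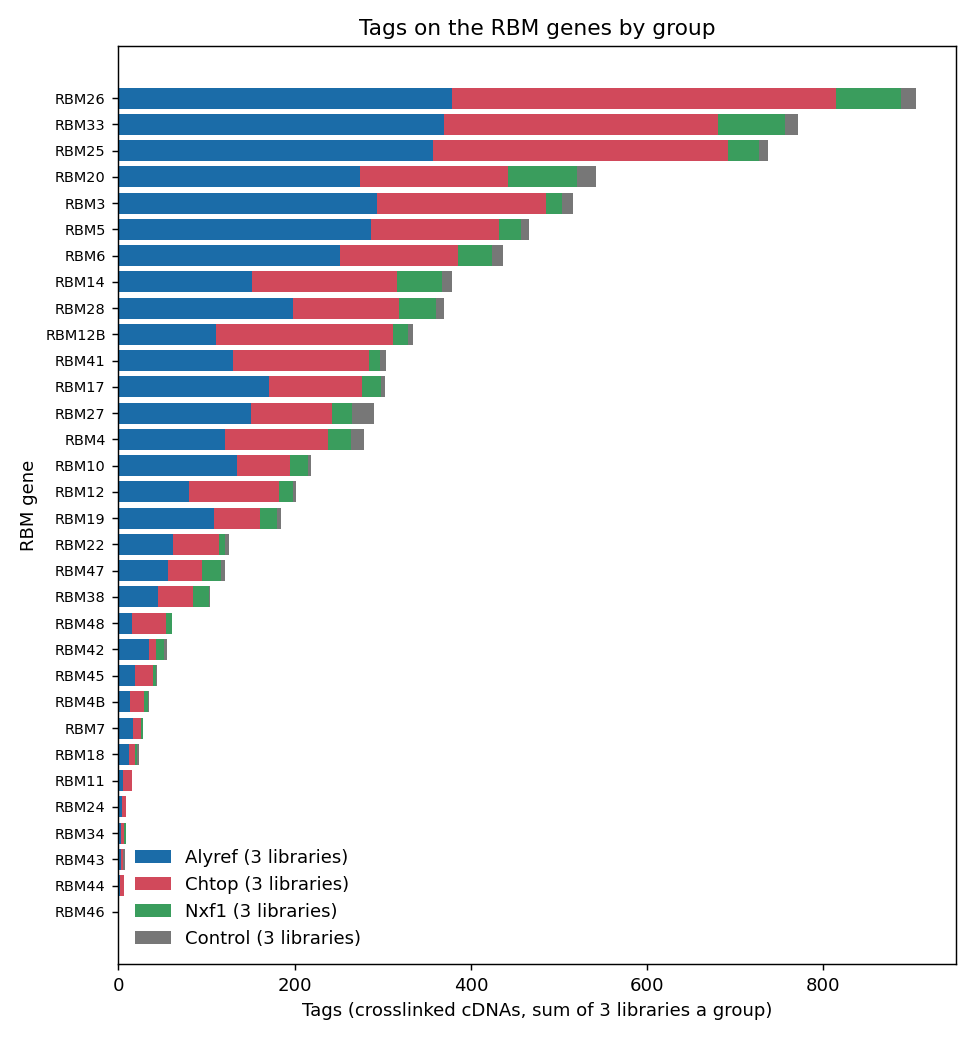
Tags (x), not scaled to depth, on each of the 32 RBM genes (y) as stacked bars, with 1 colour for the sum of the 3 libraries of each group. RBM26, RBM33 and RBM25 stand at the top, Alyref and Chtop make up most of every long bar, and the Nxf1 and Control parts, from shallower libraries, are short.

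Values per library are given below in the order of replicates 1, 2 and 3. RBM26, on chromosome 13 (79885959-79980612, minus strand) and with RBM27 a partner of the exosome-linked zinc-finger complex, had 888 factor tags, the most of any RBM gene. Its counts were 23, 205 and 151 in Alyref, 12, 228 and 196 in Chtop, 1, 35 and 37 in Nxf1 and 2, 14 and 1 in the Control. Scaled to depth these were 286 ± 37.2, 378 ± 108, 208 ± 85.4 and 204 ± 154 CPM (SD, n = 3 each), and the groups overlapped. RBM33, on chromosome 7 (155437145-155574179), had 24, 202 and 144 tags in Alyref, 11, 165 and 135 in Chtop, 1, 39 and 36 in Nxf1 and 2, 5 and 8 in the Control, or 284 ± 41.6, 285 ± 44.3, 217 ± 103 and 203 ± 89.7 CPM (SD, n = 3 each). Alyref and Chtop were alike on RBM33 within their spread.

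Scaled to length, the order was different. Per kilobase of canonical exon, the highest Alyref levels were on RBM3 (45.8 ± 15.2 CPM per kb), RBM5 (40.5 ± 15.4), RBM17 (29.6 ± 9.38) and RBM26 (29.1 ± 4.79), each SD with n = 3. In Chtop they were on RBM25 (42.9 ± 11.2), RBM26 (37.9 ± 13.6), RBM5 (31.1 ± 3.76) and RBM4 (28.5 ± 13.3). Neighbours in either order differed by less than the larger of their SDs.

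Tags per gene were compared in 1 fit over 3421 genes (edgeR quasi-likelihood test, Benjamini-Hochberg adjusted p below 0.05 called). The filter on low counts left 15 of the 32 RBM genes in it, and 5 of them were called in at least 1 of the 6 comparisons. A gene can pass this filter through 1 group in which it is high. Against the Control, 0 of 15 were called for Alyref (0% of all genes; 1 RBM gene had an unadjusted p below 0.05 and DESeq2 called 0), 2 for Chtop (14.6% of all genes) and 0 for Nxf1 (0% of all genes; 1 RBM gene unadjusted, DESeq2 0). Between factors, 1 was called in Alyref against Chtop (15.4% of all genes), 1 in Alyref against Nxf1 (4.33%) and 4 in Chtop against Nxf1 (25.3%). As shares of the 15, these calls are 13.3% in Chtop against Control, 6.67% in Alyref against Chtop and in Alyref against Nxf1, and 26.7% in Chtop against Nxf1. The RBM genes' median log2 difference was 0.29 in Chtop against Control beside 0.16 over all genes, and 0.22 beside 0.01 in Chtop against Nxf1. TMM scaling put the median of all genes at 0.17 in Alyref against Control and RLE scaling at -0.01.

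RBM25, which joins U1 snRNP and shifts 5′ splice-site use, lies on chromosome 14 (73525240-73590607, plus strand). It had 13, 179 and 165 tags in Alyref, 15, 143 and 177 in Chtop, 4, 13 and 18 in Nxf1 and 1, 8 and 1 in the Control. Means were 239 ± 68.6 CPM in Alyref, 332 ± 74.2 in Chtop, 234 ± 224 in Nxf1 and 114 ± 76.4 in the Control (SD, n = 3 each), and all 3 Chtop libraries stood above all Control libraries. RBM25 was higher in Chtop than in the Control, by 1.58 on the log2 scale (SE 0.51, adjusted p = 0.0363), and higher than in Nxf1 by 1.29 (SE 0.39, adjusted p = 0.0159). The first call did not pass with RLE scaling (adjusted p = 0.0551), with exonic tags only (log2 0.83, adjusted p = 0.467) or without Chtop 3 or Control 3. The second was lost without Chtop 3, Nxf1 2 or Nxf1 3, and DESeq2 made neither call (0.114 for both).

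RBM12B, on chromosome 8 (94740383-94753245, minus strand), is a protein of several RNA recognition motifs whose coding sequence lies in 1 large exon. Its counts were 8, 66 and 37 in Alyref, 8, 102 and 91 in Chtop, 1, 9 and 7 in Nxf1 and 1, 4 and 0 in the Control. In CPM these were 88.1 ± 23.4, 190 ± 20.9, 79.2 ± 42.1 and 76.1 ± 71.7 (SD, n = 3 each), and every Chtop library stood above every library of the other groups. RBM12B was lower in Alyref than in Chtop, by -1.32 on the log2 scale (SE 0.30, adjusted p = 0.00296), and higher in Chtop than in Nxf1 by 1.57 (SE 0.42, adjusted p = 0.00821). DESeq2 gave 0.0874 and 0.0697 for them. The first call was lost without Alyref 2 or Alyref 3 and with no filter on low counts (adjusted p = 0.137). The second was lost without Nxf1 3 and with exonic tags only (log2 0.61, adjusted p = 0.338).

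RBM12, with a similar single large coding exon on chromosome 20, had 3, 45 and 32 tags in Alyref and 5, 49 and 48 in Chtop, but too few overall for this fit. Its means were 53.7 ± 17.2 CPM in Alyref and 103 ± 10.8 in Chtop, and the libraries of the 2 factors did not overlap. Only 70.3% of the strand's tags over its span could be given to RBM12, because other genes share the bases.

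RBM3, a small RNA-binding protein that rises when cells are cooled, lies on chromosome X (48432837-48439550, plus strand). It had 29, 121 and 144 tags in Alyref, 7, 117 and 67 in Chtop, 3, 9 and 6 in Nxf1 and 2, 10 and 1 in the Control, or 262 ± 85.1, 174 ± 37.6, 159 ± 183 and 176 ± 133 CPM (SD, n = 3 each). The Nxf1 mean is carried by 3 tags in the shallow Nxf1 1, and Nxf1 2 and Nxf1 3 lay below every Alyref and Chtop library. In the fit, which weights libraries by their depth, RBM3 was higher in Alyref than in Nxf1 by 1.68 on the log2 scale (SE 0.47, adjusted p = 0.0349) and higher in Chtop than in Nxf1 by 1.33 (SE 0.48, adjusted p = 0.04). Both were lost without any 1 of Alyref 2, Alyref 3, Nxf1 2 and Nxf1 3, the second also without Chtop 2, and DESeq2 gave 0.265 and 0.254. With exonic tags only the differences were 0.69 (adjusted p = 0.231) and 0.13 (adjusted p = 0.857), and with no filter on low counts the second had an adjusted p of 0.0502.

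RBM41, a protein of the minor spliceosome on chromosome X, had 7, 62 and 61 tags in Alyref, 6, 83 and 65 in Chtop, 1, 4 and 8 in Nxf1 and 0, 6 and 1 in the Control. It was higher in Chtop than in Nxf1 by 1.56 on the log2 scale (SE 0.45, adjusted p = 0.0116), a call lost without Nxf1 2 or Nxf1 3 and not made by DESeq2 (0.0854).

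RBM27, the relative of RBM26 on chromosome 5 (145583168-145668786, plus strand), went the other way. It had 6, 62 and 82 tags in Alyref, 2, 59 and 31 in Chtop, 0, 12 and 11 in Nxf1 and 1, 10 and 14 in the Control. With the Control so much shallower, its mean was highest there, 245 CPM against 103 in Alyref, 74.7 in Chtop and 54.0 in Nxf1, and each Control library lay above all the others. RBM27 was lower in Chtop than in the Control by -1.75 on the log2 scale (SE 0.47, adjusted p = 0.0151), which DESeq2 also called. It was lost without Chtop 3, Control 2 or Control 3 and with no filter on low counts (log2 -1.02, adjusted p = 0.45). In Alyref against Control the difference was -1.49 (SE 0.45, adjusted p = 0.103). RBM26 differed in the other direction, by 1.095 in Chtop against Control, but did not pass (SE 0.47, adjusted p = 0.101).

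The second comparison was of exons with introns within each gene. Of the exonic and intronic tags of the RBM genes, introns held 37.7%, 37.7% and 43.2% in the Alyref libraries, 32.4%, 28.4% and 16.0% in Chtop, 13.6%, 57.4% and 70.9% in Nxf1 and 45.5%, 68.4% and 75.9% in the Control. All Chtop libraries stood below all Alyref libraries, and Nxf1 ran from the lowest value to near the highest, with 24 tags in its lowest library. Over all protein-coding genes the group means were 45.0%, 31.5%, 54.7% and 71.8%, against 39.5%, 25.6%, 47.3% and 63.2% over the RBM genes.

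Exon against intron use per gene was tested as the difference of a region's change between groups, in a fit over 7025 genes with at least 20 tags in each region, 19 of them RBM genes. Of these, 5 were called in Chtop against Control (13.4% of all genes) and 6 in Chtop against Nxf1 (22.4%), all toward exons in Chtop. One was called in Alyref against Nxf1 (0.484%). The counts were 0 in Alyref against Control (0.171%; 4 RBM genes at an unadjusted p below 0.05), 0 in Nxf1 against Control (0%; 2 unadjusted) and 0 in Alyref against Chtop (0.484%; 6 unadjusted), and DESeq2 was not run on this measure. The median log2 difference of the RBM genes was 2.12 beside 2.05 over all genes in Chtop against Nxf1, and 2.64 beside 3.13 in Chtop against Control. In Alyref against Chtop it was -0.92 beside -0.94, and all 19 RBM genes had a value below 0.

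RBM26 showed the difference in the most tags. Its exons had 12, 114 and 79 tags in Alyref, 6, 108 and 116 in Chtop, 0, 7 and 3 in Nxf1 and 0, 3 and 0 in the Control, and its introns 6, 57 and 33, 0, 35 and 20, 0, 23 and 32, and 1, 9 and 1. Thus 68.1% of the pooled Alyref tags and 80.7% of the Chtop tags were exonic, against 15.4% in Nxf1 and 21.4% in the Control. Exon use was higher in Chtop than in Nxf1 by 4.62 on the log2 scale (SE 0.86, adjusted p = 5.69e-05), and no single library that was left out ended this call. It was higher in Alyref than in Nxf1 by 3.54 (SE 0.83, adjusted p = 0.0134), but not with the replicate number as a block (adjusted p = 0.182), with exons of all isoforms merged (0.0696) or without Alyref 2, Alyref 3, Nxf1 2 or Nxf1 3. Against the Control, Chtop's pooled ratio of exonic to intronic tags was 15.1 times that of the Control (95% counting interval 3.83 to 87.3, 3 exonic Control tags; adjusted p = 0.0168; lost without Control 2 or Control 3).

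RBM33 followed. Its exons had 16, 123 and 84 tags in Alyref, 9, 124 and 119 in Chtop, 1, 12 and 13 in Nxf1 and 1, 1 and 0 in the Control, and its introns 8, 78 and 60, 2, 40 and 16, 0, 27 and 23, and 1, 4 and 8. The exonic share was 60.4% in Alyref, 81.3% in Chtop, 34.2% in Nxf1 and 13.3% in the Control. Exon use was higher in Chtop than in Nxf1 by 3.07 on the log2 scale (SE 0.78, adjusted p = 0.00274; lost without Nxf1 3). Against the Control the pooled ratio was 27.9 times higher (interval 6.06 to 261; adjusted p = 0.00493; lost without Control 2 or Control 3).

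The splice-site genes RBM25 and RBM6 were called in Chtop against Nxf1. For RBM25 the exons had 14, 115 and 157 tags in Chtop and 4, 3 and 8 in Nxf1, the introns 1, 28 and 19 and 0, 10 and 10, and exon use was higher in Chtop by 2.95 on the log2 scale (SE 0.86, adjusted p = 0.00901; lost without Nxf1 2 or Nxf1 3). RBM6, next to RBM5 on chromosome 3 and a relative of it, had 1, 35 and 31 exonic and 1, 52 and 13 intronic tags in Chtop but 0, 1 and 0 exonic and 1, 12 and 23 intronic tags in Nxf1. Its pooled ratio was 36.0 times higher in Chtop (interval 5.72 to 1505, 1 exonic Nxf1 tag; adjusted p = 0.00211; lost without Nxf1 3).

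RBM41 and RBM20 were also called in Chtop against Nxf1. RBM41 had 5, 70 and 57 exonic and 1, 13 and 8 intronic tags in Chtop and 1, 3 and 0 exonic and 0, 1 and 8 intronic tags in Nxf1 (log2 difference 3.55, SE 1.19, adjusted p = 0.0223). That call was lost with the replicate block (0.0722) and without Alyref 2 or Nxf1 3. RBM20, the splicing regulator of titin in heart muscle, had 3, 45 and 35 exonic and 2, 66 and 17 intronic tags in Chtop and 0, 10 and 1 exonic and 0, 27 and 41 intronic tags in Nxf1 (2.86, SE 0.86, adjusted p = 0.0109; lost without Chtop 3 or Nxf1 3).

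The rest of the Chtop against Control calls rested on few exonic Control tags. RBM27 had 61 exonic and 31 intronic Chtop tags against 2 and 23 in the Control, a ratio 22.1 times higher (interval 4.94 to 205; adjusted p = 0.00673; lost without Control 3). RBM20 had 83 and 85 against 2 and 19, a ratio 9.19 times higher (interval 2.11 to 83.9; adjusted p = 0.0432). It was lost with the replicate block (0.0858) and without Alyref 2, Alyref 3, Chtop 1, Chtop 3, Control 2 or Control 3. RBM22, which contacts the catalytic RNA of the activated spliceosome, had 45 and 7 in Chtop against 0 and 5 in the Control (adjusted p = 0.0201). That call was lost without Control 2 or Control 3. With 0 tags taken as 3 over the group its ratio was 10.7 times higher in Chtop. The counting interval started lower, at 4.51, and had no upper end.

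**Figure D2:**
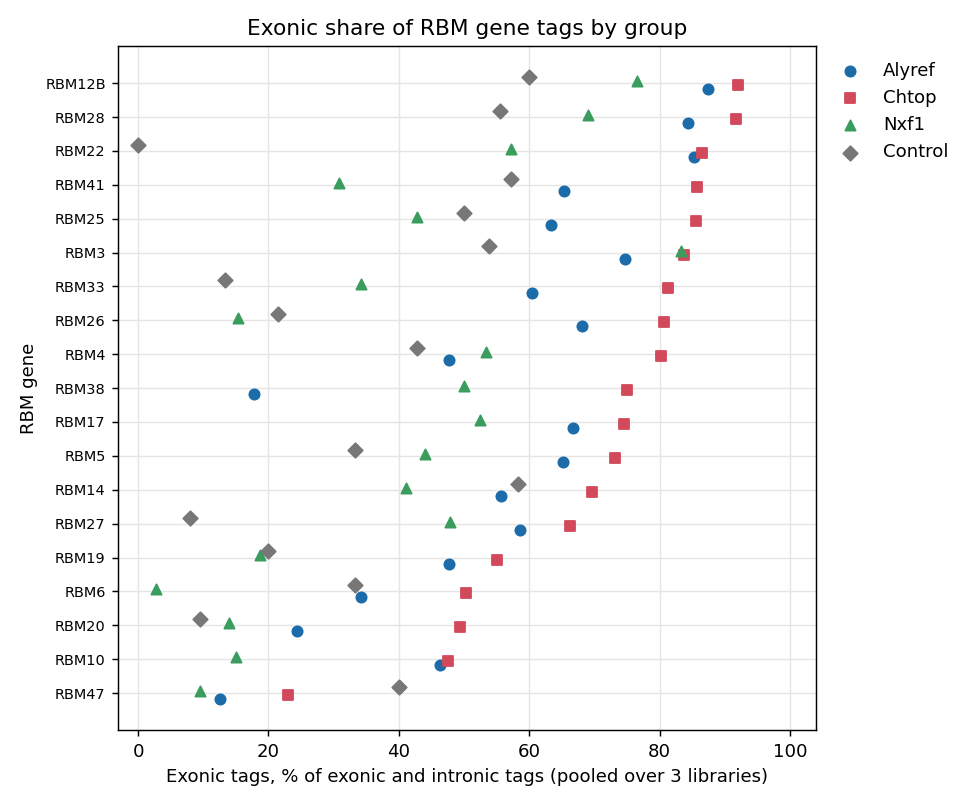
Percentage of exonic tags among exonic and intronic tags (x) for each tested RBM gene (y), pooled over the 3 libraries of each group, with 1 point per group where it has at least 5 tags. Chtop points lie to the right of Alyref points for all 19 genes, and RBM26, RBM33 and RBM20 have Nxf1 and Control points far to the left.

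Some RBM genes were mainly intronic in Alyref, though not all of them in every factor group. RBM20 had 24.5% of its Alyref tags, 49.4% of its Chtop tags and 13.9% of its Nxf1 tags in exons. RBM47, which partners the editing enzyme APOBEC1, had 12.5%, 23.1% and 9.52%. RBM38, a p53-responsive regulator of mRNA stability, had 8 exonic and 37 intronic tags in Alyref and 30 and 10 in Chtop, and the difference did not pass (log2 -3.73, SE 1.03, adjusted p = 0.0509). RBM12B and RBM28 lay at the other end, with 87.4% and 84.3% in Alyref and 92.0% and 91.7% in Chtop.

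The third comparison set 3′ UTRs against the exon sequence upstream of them. In the RBM genes the 3′ UTR took 36.7%, 31.7% and 37.7% of exonic tags in Alyref, 38.4%, 52.9% and 53.6% in Chtop, 63.2%, 55.9% and 77.9% in Nxf1, and 43.1% ± 16.5 in the Control (SD, n = 3). Every Alyref library stood below every Chtop library, and every Nxf1 library above both, while the Control spanned the factors. Over all protein-coding genes the group means were 28.3%, 45.1%, 45.1% and 40.7%.

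Of 16 RBM genes among 4524 tested genes, 5 were called in Alyref against Chtop, all with less 3′ UTR use in Alyref (31.9% of all genes, of which 1430 of 1441 had that direction). The share of RBM genes, 31.3%, is that of all genes. In the other comparisons 0 were called: Alyref against Control (0% of all genes, 1 RBM gene at an unadjusted p below 0.05), Chtop against Control (0%, 2), Nxf1 against Control (0%, 0), Alyref against Nxf1 (0.531%, 7) and Chtop against Nxf1 (0.398%, 2), by edgeR alone. The median log2 difference in Alyref against Chtop was -1.09 over the RBM genes and -1.24 over all genes.

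The called genes were RBM3 and 4 spliceosome genes. RBM3 had 9, 47 and 54 tags in its 3′ UTR and 13, 45 and 51 upstream in Alyref, and 2, 90 and 54 against 0, 9 and 5 in Chtop. The 3′ UTR share was 50.2% in Alyref and 91.2% in Chtop, with no overlap between their libraries, and 3′ UTR use was lower in Alyref by -3.33 on the log2 scale (SE 0.50, adjusted p = 6.95e-09). RBM25 had 3, 31 and 37 against 4, 84 and 67 in Alyref and 6, 80 and 124 against 8, 35 and 33 in Chtop, or 31.4% and 73.4% (log2 -2.54, SE 0.34, adjusted p = 3.99e-11).

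RBM17, also called SPF45, which reads the 3′ splice site, had 5, 17 and 10 tags in the 3′ UTR and 5, 49 and 28 upstream in Alyref and 1, 31 and 25 against 1, 13 and 8 in Chtop, or 28.1% and 72.2%. The log2 difference was -2.64 (SE 0.59, adjusted p = 0.000155). RBM5, a regulator of apoptotic splice forms, had 1, 21 and 17 against 7, 96 and 45 in Alyref and 1, 30 and 29 against 3, 26 and 17 in Chtop, or 20.9% and 56.6% (-2.25, SE 0.51, adjusted p = 0.000199). These 4 genes passed whichever single library was left out. RBM22 had 5, 6 and 9 against 3, 17 and 12 in Alyref and 0, 18 and 16 against 0, 7 and 4 in Chtop, or 38.5% and 75.6% (-2.20, SE 0.77, adjusted p = 0.0193), and was lost without Alyref 2, Chtop 2 or Chtop 3.

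**Figure D3:**
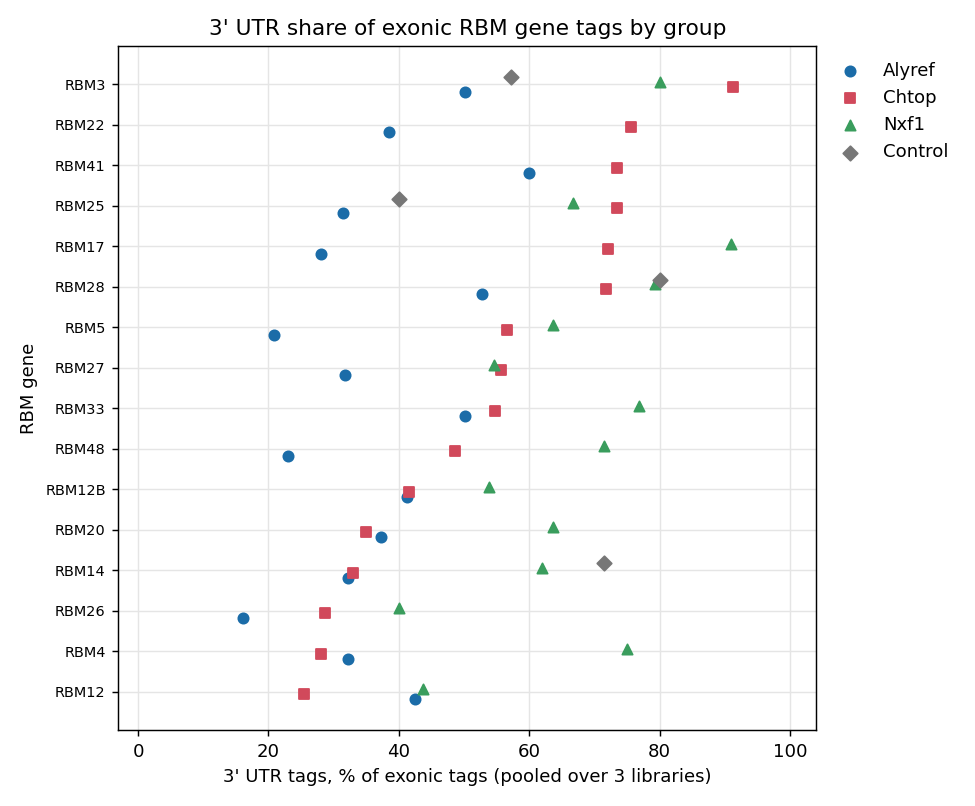
Percentage of 3′ UTR tags among the exonic tags (x) of each tested RBM gene (y), pooled over the 3 libraries of each group, with 1 point per group where it has at least 5 tags. Alyref and Chtop lie far apart for RBM3 (50.2% and 91.2%) and RBM17 (28.1% and 72.2%) and close together for RBM12B (41.2% and 41.6%) and RBM14 (32.1% and 33.0%).

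In the other tested RBM genes the difference did not pass the threshold, and their values ran from near 0 or above to the all-gene median or below. RBM12B had 41.2% of its exonic Alyref tags and 41.6% of its Chtop tags in the 3′ UTR (log2 0.02, SE 0.59, adjusted p = 0.981). RBM14, a paraspeckle protein and coactivator, had 32.1% and 33.0% (-0.04, SE 0.53), RBM20 37.3% and 34.9% (0.12, SE 0.65), RBM33 50.2% and 54.8% (-0.28, SE 0.38) and RBM4 32.3% and 28.1% (0.29, SE 0.92). RBM12 had 42.5% and 25.5% (1.08, SE 0.60, adjusted p = 0.148). RBM28 (-1.15), RBM26 (-1.03), RBM27 (-1.35), RBM41 (-0.91) and RBM48 (-1.46) had values below 0 that did not pass, with adjusted p from 0.0606 for RBM28 to 0.313 for RBM48. The genes near 0 were not tested against the genes that were called.

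**Figure D4:**
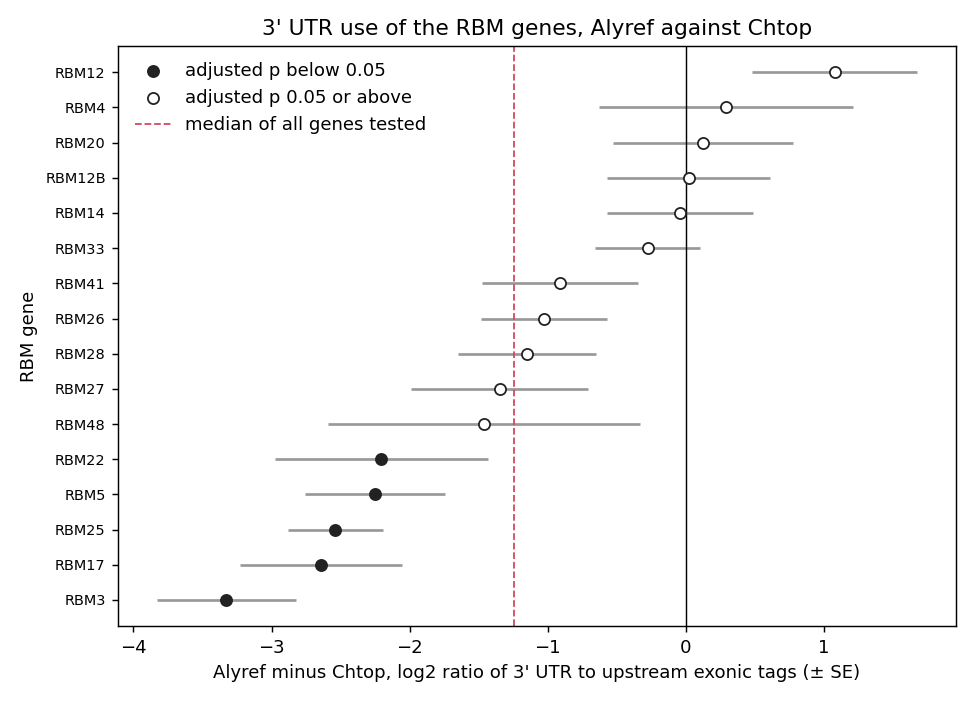
Log2 difference in 3′ UTR against upstream exon use, Alyref against Chtop (x), for the tested RBM genes (y), with bars of 1 SE, filled points for called genes and a dashed line at the median of all genes (-1.24). RBM3 lies lowest at -3.33, the other called genes lie between -2.64 and -2.20, and RBM12 lies highest at 1.08.

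The last bases of these 3′ UTRs are shown because the share of exonic tags in the 3′ UTR differed between Alyref and Chtop in these genes. That share moves with the tags upstream as well as with those in the 3′ UTR, and the coding tags of RBM5 and RBM17 numbered 140 and 68 in Alyref against 45 and 21 in Chtop. The 30 bases before the canonical transcript end (GRCh37, 5′ to 3′, with the poly(A) signal hexamer AATAAA in capitals, searched on the transcript strand only) were read from the genome. The hexamer was in this window in 56.6% of 19819 protein-coding canonical transcripts and in 18 of 32 RBM genes. Of the 5 called genes it was found in RBM3 and RBM17. Variants of the hexamer were not searched for, so a window without AATAAA need not lack a poly(A) signal.
RBM3, chrX:48439521-48439550, plus strand: cttAATAAAcatttctaatatgctgtgaaa
RBM17, chr10:6159381-6159410, plus strand: AATAAAaattaaaaattatgtaagctacaa
RBM5, chr3:50156425-50156454, plus strand: ggtaggtgggtcaagcatgtctgagccagt
RBM22, chr5:150070354-150070383, minus strand: tttaaataattaaaacgggtcaatttttca
RBM25, chr14:73590578-73590607, plus strand: ttcaagccatgttgtttgaattaaatgaca

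RBM26 had many tags past its canonical end. Its canonical transcript ends at position 79893003 of chromosome 13, and a longer annotated form ends 7044 bases further on, at 79885959. This stretch had 5, 32 and 32 tags in Alyref, 6, 85 and 55 in Chtop, 1, 5 and 2 in Nxf1 and 0, 2 and 0 in the Control. That is 146 Chtop tags, more than the 66 in the canonical 3′ UTR, and 69 Alyref tags against 33. The stretch is also longer, as the whole canonical last exon (exon 22) has 1843 bases, with 68 Chtop and 34 Alyref tags. Per base, both factors had fewer tags past the canonical end than in that exon. The hexamer was found before the last annotated end and not before the canonical end.
RBM26, canonical end, chr13:79893003-79893032, minus strand: gttttcttttctttttagtagtcgtgaaag
RBM26, last annotated end, chr13:79885959-79885988, minus strand: tttaaAATAAAagtcttactaaaaacagtt
With 3′ UTRs drawn to the last annotated end of each gene, an alternative chosen after the data were seen, the calls of RBM3, RBM25, RBM17, RBM5 and RBM22 stood. The log2 difference of RBM26 given above counts only to its canonical end, and its value under this alternative is not given here.

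At the other end of the transcripts Alyref had the larger share. The 5′ UTR took 11.2% ± 2.79 of the exonic tags of the RBM genes in Alyref, 2.99% ± 0.347 in Chtop, 2.98% ± 2.59 in Nxf1 and 5.16% ± 4.51 in the Control (SD, n = 3 each), against 7.96%, 5.34%, 5.87% and 7.38% over all protein-coding genes. Every Alyref library (9.37% to 14.4%) stood above every Chtop library (2.74% to 3.39%), and 3 libraries against 3 cannot give a two-sided exact permutation p below 0.1. Without RBM3 the Alyref share was 8.98% ± 2.63 and that of Chtop 3.15% ± 0.493, still without overlap.

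RBM3 exon 1 (chromosome X, 48432872-48432961, 90 bases) was singled out after its values were seen. It had 6, 27 and 26 tags in Alyref, 0, 0 and 1 in Chtop, 0, 1 and 1 in Nxf1 and 0, 0 and 1 in the Control. All 3 Alyref libraries stood above every other library, at 591 ± 198 CPM per kb against 8.62 ± 14.9 in Chtop and 100 ± 173 in the Control (SD, n = 3 each). The pooled ratio of Alyref to Chtop, scaled to depth, was 45.5 (95% counting interval 7.86 to 1828). In a fit of every exon and intron with at least 5 tags the log2 difference was 4.97 (SE 1.20), with an adjusted p of 0.351. In exons 2, 3 and 5 every Alyref library also stood above every Chtop library. Means there were 200, 160 and 75.7 CPM per kb in Alyref and 16.0, 18.8 and 14.4 in Chtop, from few tags. The groups overlapped in exons 4 and 6. The last exon, exon 7, was at 24.8 ± 4.93 CPM per kb in Alyref and 29.7 ± 16.6 in Chtop, so the groups overlapped there as well.

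**Figure D5:**
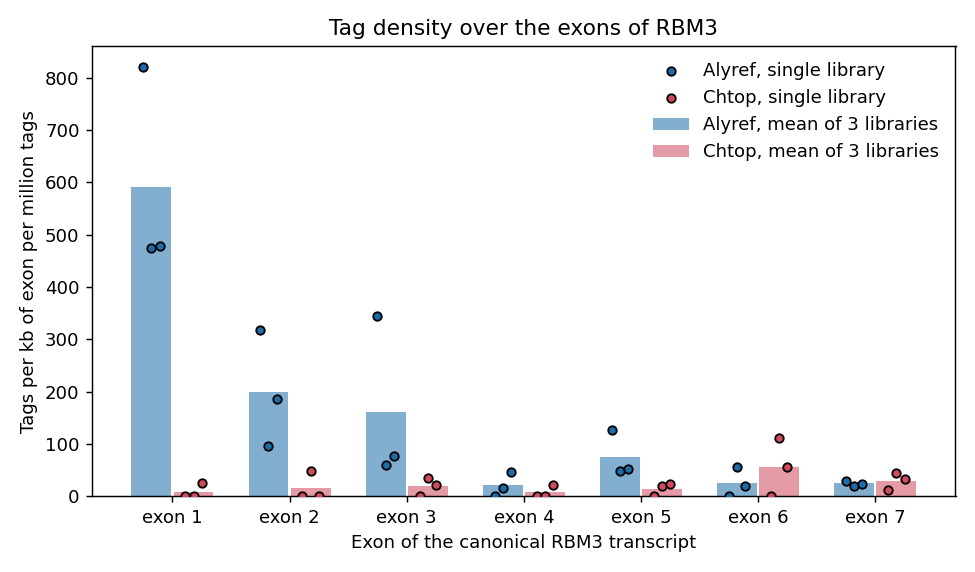
CPM per kilobase of exon (y) in exons 1 to 7 of RBM3 (x) for Alyref and Chtop, with points for single libraries and bars from 0 for the means of 3 libraries. Alyref stands at 591 in exon 1 against 8.62 in Chtop, and also above Chtop in exons 2, 3 and 5. The groups lie close together in exon 7, at 24.8 and 29.7.

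Single bases seldom recurred. Of 7270 crosslinked bases in RBM genes 6786 (93.3%) had 1 tag, and the highest count at a base was 8. The uracil-rich stretch of the RBM3 3′ UTR is shown because 4 neighbouring bases in it held 24 tags in 5 libraries, 14 of them from Alyref, 8 from Chtop, 2 from Nxf1 and 0 from the Control. The other windows are the intronic base of RBM3 with 7 tags, 6 of them from Alyref, the intronic base of RBM20 with a tag in 5 libraries, a RBM25 3′ UTR base with 4 tags, all from Chtop, and a RBM26 intron base with 5 tags, 4 of them from Nxf1 2. Capitals mark the crosslinked bases, which each have 10 bases on either side (GRCh37, T for U).
RBM3 3′ UTR, chrX:48436566-48436589, plus strand: ttgcaaatgtCTTTttttttttaa
RBM3 intron 1, chrX:48433542-48433562, plus strand: tgttcttcccAcaggacttga
RBM20 intron 1, chr10:112432268-112432288, plus strand: gtcagccaaaGcccccggggc
RBM25 3′ UTR, chr14:73587676-73587696, plus strand: cattagtgttTaaaaatgtac
RBM26 intron 1, chr13:79971657-79971677, minus strand: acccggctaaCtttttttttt

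T stood at the crosslinked base in 53.5% of exonic Alyref tags on RBM genes, 58.5% of those of Chtop, 52.3% of those of Nxf1 and 58.1% of those of the Control, where T makes up 27.0% of the exonic bases. In introns the shares were 63.6%, 64.4%, 61.7% and 68.9%, where T makes up 31.2%. The Control, with no export protein tagged, also had more T at the crosslinked base than in the sequence.

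Single exons and introns could be tested for few genes. Of 678 exons and introns of the RBM genes 508 had a tag, but 5 passed the filter into a fit of 824. Of these 5, 3 were called in Chtop against Control (50.6% of all features), 1 in Alyref against Chtop (14.9%) and 3 in Chtop against Nxf1 (42.2%). By edgeR 0 were called in Alyref against Control (0%, 1 unadjusted), Nxf1 against Control (0.364%, 1 unadjusted) and Alyref against Nxf1 (0%, 0 unadjusted). The filter asks for a minimum scaled count in as many libraries as 1 group holds. A feature can therefore enter through the group in which it is high. RBM25 exon 19 and RBM33 exon 18 entered mainly through Chtop, and RBM20 intron 1 mainly through Nxf1 and the Control. Their calls are thus not independent of the filter.

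The last exon of RBM25 (exon 19, chromosome 14, 73586421-73590607) had 302 factor tags, the most of any exon or intron of these genes. Its counts were 3, 33 and 40 in Alyref, 7, 83 and 126 in Chtop, 3, 1 and 6 in Nxf1 and 0, 2 and 0 in the Control. It was higher in Chtop than in Nxf1 by 2.61 on the log2 scale (SE 0.80, adjusted p = 0.00644), which was lost without Alyref 2, Alyref 3, Nxf1 2 or Nxf1 3 and with every feature of at least 5 tags in the fit (0.159). Against the Control, Chtop was 9.64 times higher (interval 2.64 to 80.1, 2 Control tags; adjusted p = 0.000965), whichever library was left out. Its lower level in Alyref than in Chtop (log2 -2.11, SE 0.66, adjusted p = 0.0264) was lost with the replicate block (0.073), with every feature of at least 5 tags (0.377) and with 8 of the 12 libraries left out singly: Alyref 1, Alyref 2, Alyref 3, Chtop 1, Chtop 3, Nxf1 2, Control 1 and Control 2.

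The large last exon of RBM12B (exon 4, 94740383-94748666) had 8, 49 and 29 tags in Alyref, 8, 89 and 84 in Chtop, 1, 5 and 6 in Nxf1 and 1, 2 and 0 in the Control. Chtop was above Nxf1 by 2.23 on the log2 scale (SE 0.77, adjusted p = 0.0141), which was lost without Alyref 2, Alyref 3, Nxf1 2, Nxf1 3 or Control 1 and with every feature of at least 5 tags in the fit (0.194). It was 5.38 times above the Control (interval 1.81 to 26.4; adjusted p = 0.00641; lost without Control 3). The last exon of RBM33 (exon 18, chromosome 7, 155567687-155574174) had 7, 60 and 47 tags in Alyref, 6, 67 and 69 in Chtop, 1, 8 and 12 in Nxf1 and 0, 1 and 0 in the Control. Chtop was 12.7 times above the Control there (interval 2.24 to 504, 1 Control tag; adjusted p = 0.00218).

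The first intron of RBM20 (chromosome 10, 112404404-112540558, 136155 bases) was the only intron among the 5, and the only one lower in Chtop. It had 6, 63 and 85 tags in Alyref, 1, 43 and 11 in Chtop, 0, 23 and 36 in Nxf1 and 1, 8 and 8 in the Control. Chtop was below Nxf1 by -1.85 on the log2 scale (SE 0.70, adjusted p = 0.0257), which was lost with the replicate block (0.054), with each base counted once (0.09), with every feature of at least 5 tags in the fit (log2 -1.02, adjusted p = 0.515) and without Chtop 3, Nxf1 2 or Control 3. RBM3 exon 7 was the other feature tested and was not called. With it, RBM12 exon 3 (198 factor tags), RBM28 exon 19 (197), RBM41 exon 8 (161), RBM14 intron 1 (127) and RBM5 exon 25 (124) completed the 10 features with the most factor tags, of which 8 were last exons.

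Tags also lay in introns that another isoform keeps as exon. In the canonical introns of the RBM genes these numbered 305 in Alyref, 124 in Chtop, 36 in Nxf1 and 22 in the Control. Retained-intron isoforms took 101, 34, 11 and 9 of them and isoforms subject to nonsense-mediated decay 30, 4, 1 and 4. RBM25 (43 Alyref and 11 Chtop tags) and RBM5 (33 and 14) led the retained introns. RBM6 held 18 of the 30 Alyref tags in decay isoforms, against 1 in Chtop. No test was run on these classes.

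RBM4 and RBM4B are splicing and translation regulators of similar sequence on chromosome 11. RBM4 had 6, 59 and 56 tags in Alyref, 8, 69 and 40 in Chtop, 1, 10 and 15 in Nxf1 and 2, 2 and 11 in the Control. RBM4B had 1, 6 and 6 in Alyref, 0, 8 and 8 in Chtop, 0, 3 and 2 in Nxf1 and 0, 1 and 0 in the Control. Of the 25-base stretches of RBM4's canonical exons 17.9% also occur in RBM4B, where unique mapping drops reads, so both counts are uncertain. RBM12 with RBM12B, RBM26 with RBM27 and RBM5, RBM6 and RBM10 with each other shared 0% of such stretches. RBM5 and RBM6 had close Alyref levels, 215 ± 58.4 and 192 ± 3.99 CPM, with 65.2% and 34.3% of tags in exons. RBM10, another relative on chromosome X, had 11, 74 and 49 tags in Alyref, 0, 35 and 26 in Chtop, 0, 11 and 9 in Nxf1 and 1, 3 and 0 in the Control, and 46.3% of its Alyref tags were exonic. For RBM5 and RBM6 86.6% and 83.4% of the strand's tags over their spans were counted.

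No difference in the remaining genes passed a test, or they were too shallow for one. RBM28, a ribosome assembly factor, had 13, 90 and 95 tags in Alyref, 3, 67 and 50 in Chtop, 3, 16 and 23 in Nxf1 and 3, 3 and 3 in the Control. RBM19, another, had 4, 63 and 41 in Alyref, 4, 31 and 18 in Chtop, 1, 3 and 15 in Nxf1 and 0, 3 and 2 in the Control. RBM14 had 8, 69 and 74 in Alyref, 5, 78 and 82 in Chtop, 2, 21 and 28 in Nxf1 and 2, 5 and 5 in the Control. RBM48, in the minor spliceosome, had 0, 8 and 7 in Alyref and 0, 18 and 21 in Chtop. RBM42, a tri-snRNP protein, had 2, 23 and 10 in Alyref and 0, 6 and 2 in Chtop, so the 2 genes leaned to different factors in the deeper libraries, with no test. RBM7, an adaptor of the exosome, had 28 tags in all, RBM45 44 and RBM18 23. Several tissue-restricted genes were near 0, with 9 tags on RBM24, 15 on RBM11, 7 on RBM43, 6 on RBM44 and 1 on RBM46. RBM20, of the same set, had 542. RBM34 had 8, but only 6.61% of its strand's tags over its span were counted as its own.

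The genes whose proteins work with RBM proteins were listed for comparison, 38 in all from the spliceosome, nuclear decay and paraspeckles. Of 23 tested for tags per gene, 2 were higher in Chtop than in the Control (14.6% of all genes were called there), 2 higher and 1 lower in Alyref than in Chtop (15.4%), 2 higher in Alyref than in Nxf1 (4.33%), and 5 higher in Chtop than in Nxf1 (25.3%). CIRBP, the other cold-inducible RNA-binding protein, was higher in Alyref than in Chtop by 1.41 on the log2 scale (SE 0.32, adjusted p = 0.00283). For exon use, 4 of 33 were higher in Chtop than in the Control (13.4% of all genes) and 4 higher than in Nxf1 (22.4%). For 3′ UTR use, 8 of 22 were lower in Alyref than in Chtop and 0 higher (31.9% of all genes), with a median of -1.20 beside -1.09 over the RBM genes. CIRBP was among them (-1.72, SE 0.53, adjusted p = 0.00702), as were the U1 protein gene SNRNP70 (-2.54, SE 0.55, adjusted p = 9.56e-05) and the paraspeckle gene NONO (-1.68, SE 0.32, adjusted p = 5.91e-06).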

How the data were processed

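The deposited files give counts: per library, each crosslinked base, its strand and the number of reads there after duplicates were removed. Per the labels and the study's methods, the authors removed phiX reads with Bowtie 1.1.2, handled random barcodes with UMI-tools 0.5.3, trimmed with Reaper (short reads dropped), aligned uniquely to hg19 with STAR 2.4.2a, merged the 32 lane runs into 12 libraries, collapsed duplicates and took the first deletion of a read or else the base before it. Repeats and near-identical genes therefore lose tags.

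Positions (files count from 0, so 1 was added) were placed on GENCODE 44 lifted to GRCh37, by strand. A base in exons of 1 gene went to that gene, bases in exons of more were left out, and exons, introns and UTRs are those of the canonical transcript. The mitochondrial chromosome and readthrough genes were left out. Columns of per-sample values not used numbered 0. Intervals cover counting error only.

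Counts were tested with edgeR 4.0.16 in R 4.3.3 (TMM, filterByExpr, quasi-likelihood, all 12 libraries in 1 fit per measure, 6 contrasts), with adjustment over the whole table. Exon use and 3′ UTR use were tested as region by group terms. Alternatives were the replicate block, each base counted once, DESeq2 1.42.0, RLE size factors, no filter, other overlap, exon and minimum-tag rules, and each library left out. Of these, 5 alternatives were chosen after seeing the data (no replicate 1 in any group, for each of the 4 measures, and 3′ UTRs to the last annotated end). The methods were tested on simulated data. Genes named were all RBM genes, with full values for the 6 with the most factor tags, every called gene, paralogues and the 10 exons or introns with the most factor tags; partner genes were given as counts with up to 4 values. The RBM genes and all lists were chosen with earlier results of these data known.

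Every replicate number holds every group. Replicates 1 and 3 were run on HiSeq lanes of the same labels, replicate 1 also on a MiSeq, and replicate 2 on other HiSeq lanes and a MiSeq, so the numbers are not 3 separate lane batches. Deviations of libraries from their group means were correlated between libraries. The median was 0.044 between libraries of the same number (-0.166 to 0.282, 18 pairs, 6 above 0.1). Between libraries of other numbers it was -0.013 (36 pairs, 2 above 0.1). Of 12 libraries, 9 correlated best with a library of their own number. Blocked values are given where they change a call.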

Additional observations from a re-analysis of the deposited data

How the results depend on the processing

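For the 32 called values of RBM genes, 554 recomputed values kept their direction, 457 also passed the threshold and 97 did not, and all 32 passed without replicate 1 of every group. With the replicate number as a block 27 passed. The block left the RBM genes called at 0 for exon use in Alyref against Nxf1 (from 1) and at 0 for exons and introns in Alyref against Chtop (from 1), and moved no other count of RBM genes by over 1.5 times. For tags per gene, DESeq2 called 1 RBM gene in Chtop against Control and 0 in Alyref against Chtop, Alyref against Nxf1 and Chtop against Nxf1. RLE size factors gave 1 in Chtop against Control, and no filter on low counts 0 in Alyref against Chtop. With exonic tags only, 8 RBM genes entered, and 0, 3 and 0 were called in Chtop against Control, Alyref against Chtop and Alyref against Nxf1. For exon use, a minimum of 50 tags gave 1 in Alyref against Control, each base counted once 1 in Alyref against Chtop, and merged exons 0 in Alyref against Nxf1. For 3′ UTR use, a minimum of 50 tags gave 1 in Alyref against Nxf1. For exons and introns with at least 5 tags, 281 RBM features were tested. Shares over all features are not given here for that fit or for the fit without replicate 1. With at least 5 tags the counts were 17 in Chtop against Control and 0 in Alyref against Chtop and Chtop against Nxf1. Without replicate 1 they were 8, 5 and 9, with 28 RBM features tested, 3′ UTR use had 8 in Alyref against Chtop and 1 in Alyref against Nxf1, and exon use had 1 in Alyref against Chtop.

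With each library left out in turn, or replicate 1 of every group, the counts ran as follows. Tags per gene gave 0 to 3 in Chtop against Control, 0 to 1 in Alyref against Chtop, 0 to 1 in Alyref against Nxf1 and 0 to 5 in Chtop against Nxf1. Exon use gave 0 to 1, 0 to 5, 0 to 2, 0 to 2 and 1 to 8 in Alyref against Control, Chtop against Control, Alyref against Chtop, Alyref against Nxf1 and Chtop against Nxf1. 3′ UTR use gave 4 to 8 in Alyref against Chtop and 0 to 1 in Alyref against Nxf1. Exons and introns gave 0 to 1, 2 to 8, 0 to 5 and 0 to 9 in Alyref against Control, Chtop against Control, Alyref against Chtop and Chtop against Nxf1. The cause was not tested, except that the filter let in more features where a shallow library was left out. Over all genes and 6 comparisons, calls numbered 2041 for tags per gene (DESeq2 548, exonic tags only 1013), 2597 for exon use (block 1065), 1483 for 3′ UTR use (at least 50 tags 930) and 891 for exons and introns (at least 5 tags 3544). Of the 32 RBM genes, 11 had too few tags for any of the gene fits, so their differences were not detectable at this depth.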

Other observations

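Of the RBM genes' tags beyond their canonical 3′ ends, 91 were from Alyref, 161 from Chtop, 12 from Nxf1 and 3 from the Control, and RBM26 held 69 and 146 of those of Alyref and Chtop. Last exons took 41.5%, 60.8%, 72.1% and 50.5% of the exonic tags of RBM genes in Alyref, Chtop, Nxf1 and Control, against 32.8%, 52.3%, 51.6% and 45.8% over all protein-coding genes, as means of 3 libraries.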
